A study of Mus musculus with 99 samples.

Results

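The genes described here encode the proteins of the cytosolic ribosome. They are the 94 rows of a count table of 55291 rows whose symbol starts with Rpl or Rps followed by a digit, or is Rplp0, Rplp1, Rplp2 or Rpsa, without pseudogene symbols in -ps and without the Rps6k kinases; 55 start with Rpl and 39 with Rps. The rule uses symbols only and no measured value. By general knowledge, 14 of the rows are paralogs or retrogene copies of another member (such as Rps4l beside Rps4x), and Rps19bp1 encodes a protein that binds a subunit but is none itself. This left 79 rows, called core members here. Rps3a2, a pseudogene in GENCODE M21, and Rps23rg1, which is not found there, are among them because the paralog list did not hold them.

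Full-length cDNA (Smart-Seq HT, tagmented with TruePrep) was sequenced from single hair cells of C57BL/6 mice, picked by hand for the red fluorescent protein tdTomato. The first group held 32 wild-type outer hair cells (OHCs) of postnatal day 30, genotype Slc26a5-CreER/+; Ai9/+, where Ai9 is the tdTomato reporter. The second held 67 converted inner hair cells (cIHCs) of postnatal day 42, genotype Slc26a5-CreER/+; Rosa26Tbx2/+, which are OHCs that express Tbx2 from the Rosa26 locus. Both groups carry an inducible Cre under the OHC gene Slc26a5, so the model reaches only cells that had expressed that gene. The common protocol text speaks of endogenous IHCs and iOHCs; the titles were followed, and 17 further OHCs of an earlier study named in the design text were not analysed here. Each library is 1 cell and no animal is named, so each group counted as 1 sample: nothing was tested, and no difference below has a replicate check. Age and genotype cannot be told apart, nor can sex in full, since reads of Xist at 10 CPM were in 4 OHCs and 55 cIHCs and Y-linked reads in 24 OHCs and 12 cIHCs.

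A ribosome carries a single copy of nearly every protein of its large and its small subunit, and these genes are among the most steadily expressed of a cell. Their mRNAs typically start with a run of pyrimidines (C or T), the terminal oligopyrimidine or TOP element, through which the kinase mTOR and the RNA-binding protein Larp1 set how much of them is translated. OHCs amplify sound by changing length with the motor protein prestin, the product of Slc26a5, whereas inner hair cells (IHCs) release glutamate onto the auditory nerve at ribbon synapses. The levels below are of mRNA; neither ribosomes nor translation were measured.

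Pooled totals were 242054710 counts in OHCs and 544012348 in cIHCs, at 5656512 to 9287413 and 4677682 to 13792672 per cell. The labels fitted their markers: 8 OHC genes summed to 55055 CPM (a gene's counts scaled to a common total) in OHCs and 1022 CPM in cIHCs, with Slc26a5 at 2080 and 0.30 CPM, and 10 IHC genes summed to 2560 and 12802 CPM, with Rprm, Slc7a14 and Shtn1 at 0 in OHCs. Supporting cell genes summed to 4791 and 569.5 CPM, of which S100a1 alone held 4753 and 547.5 CPM, glia genes to 13.7 and 8.93 CPM, and blood and macrophage genes to 4.51 and 53.5 CPM, of which C1qb held 48.2 CPM in cIHCs while C1qa and Cx3cr1 were at 0. A median of 6068.5 genes had reads in an OHC and 8546 in a cIHC, and mitochondrially encoded genes took a median of 6.68% and 3.47% of the counts. The part of these differences in the results was not tested.

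Ribosomal protein transcripts took a smaller share of the counts in cIHCs. Over each group's summed counts the 94 rows held 2.58% in OHCs (6244861 counts) and 1.98% in cIHCs (10789875 counts), a log2 ratio of -0.38 (exact 95% interval -0.381 to -0.378) or 0.769-fold. All intervals cover counting error alone: the libraries were amplified without molecular identifiers, so their reads are not independent. Per cell the share ran from 1.73% through a median of 2.43% to 3.66% in OHCs, and from 1.41% through 1.93% to 3.00% in cIHCs. The groups overlapped: 13 cIHCs lay below the lowest OHC, 6 OHCs lay above the highest cIHC, and 9 of 67 cIHCs lay above the OHC median. The cIHC had the higher share in 14.1% of the 2144 pairs of 1 cIHC and 1 OHC. The 4 OHCs with Xist reads had a median of 2.65% and the 55 such cIHCs 1.96%; for Y-linked reads the medians were 2.43% (24 OHCs) and 1.84% (12 cIHCs), so the order was the same in both sets.

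**Figure D1:**
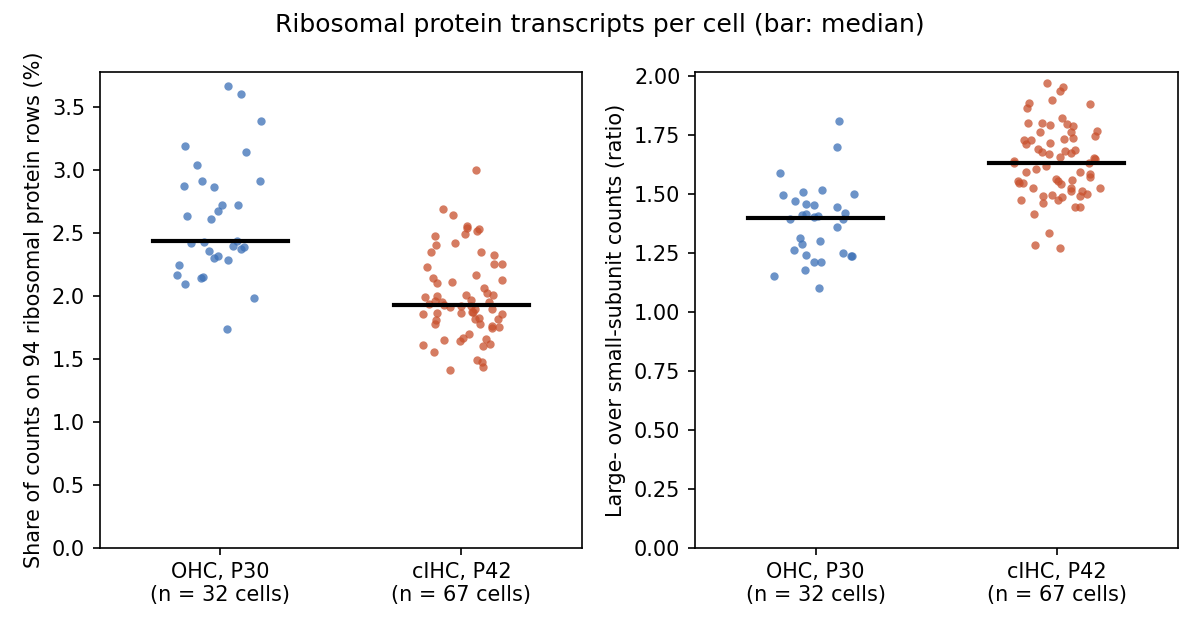
Each point is 1 cell (32 OHCs, 67 cIHCs) and each bar a median. Left, percent of a cell's counts on the 94 ribosomal protein rows, with medians of 2.43% and 1.93%. Right, counts on large-subunit rows over counts on small-subunit rows, with medians of 1.40 and 1.63; the groups overlap in both panels.

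Most members shared this direction. Of the 94 rows, 83 reached 10 CPM in 1 or both groups and 59 had reads in all 99 cells. Of the 83, 67 were lower in cIHCs (80.7%), against 41% of the 10041 genes at that level. Their median log2 ratio was -0.39, against 0.25 for all those genes, a distance of -0.64. The spread was narrow, with an interquartile range of 0.55 against 1.53 for all genes. Few members lay past 2-fold: 3 were at least 2-fold lower (Rps29, Rps18 and Rps23), where 14.3% of all genes were, and 2 at least 2-fold higher (Rps4l and Rps3a3, both paralog rows), where 26.3% were. Every ratio is relative to the total counts. The data hold no measure of RNA per cell, so a smaller share and fewer molecules per cell cannot be told apart.

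**Figure D2:**
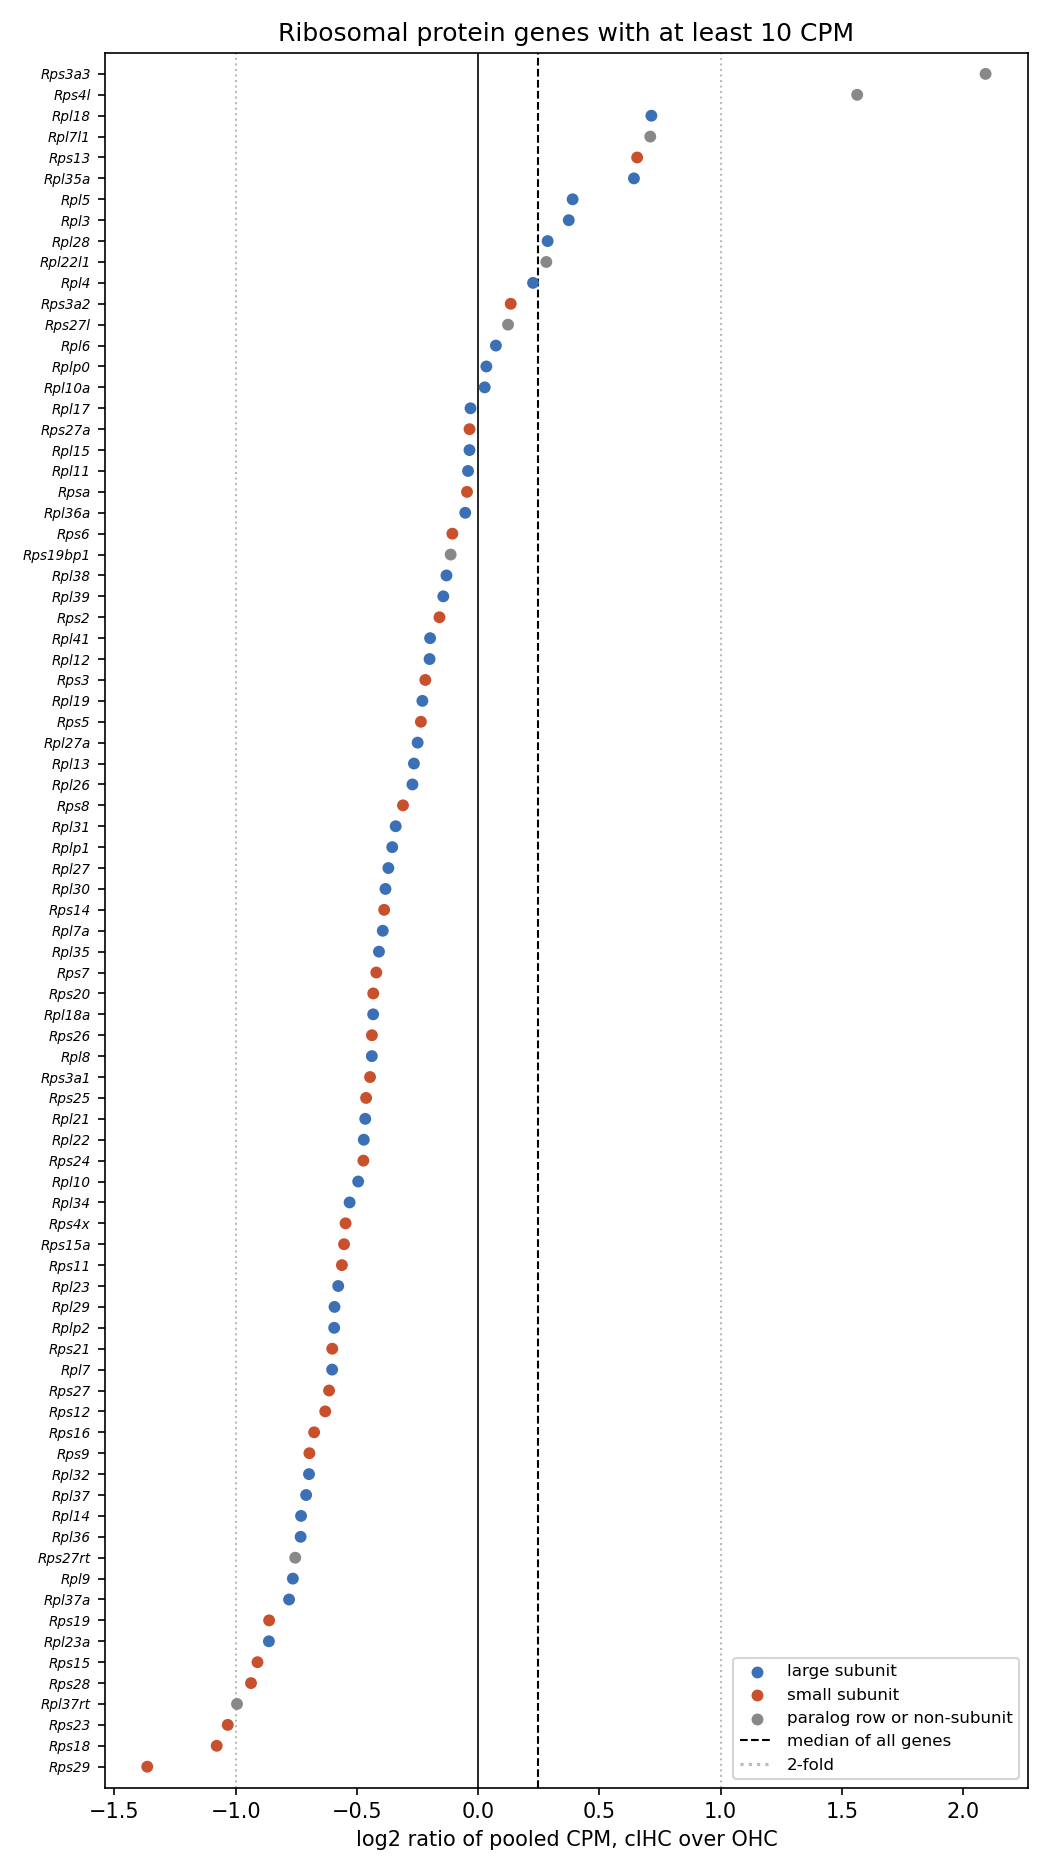
The log2 ratio of pooled CPM, cIHC over OHC, of 82 of the 83 members with at least 10 CPM, sorted, with large-subunit genes in blue, small-subunit genes in red and paralog or non-subunit rows in grey. The solid line is 0, the dashed line the median of all genes (0.25) and the dotted lines 2-fold; 66 points lie left of 0.

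The small subunit was further below OHC levels than the large subunit. The median log2 ratio of the 35 small-subunit rows at 10 CPM was -0.46, with 30 of them lower in cIHCs; of 47 large-subunit rows, 36 were lower, with a median of -0.34. Summed counts of large-subunit rows over those of small-subunit rows gave a pooled ratio of 1.37 in OHCs and 1.63 in cIHCs. Per cell this ratio ran from 1.10 through a median of 1.40 to 1.81 in OHCs, and from 1.27 through 1.63 to 1.97 in cIHCs. The groups overlapped, with 64 of 67 cIHCs above the OHC median and 8 above every OHC, and the cIHC was higher in 88.7% of pairs. With Xist reads the medians were 1.28 and 1.63, and with Y-linked reads 1.41 and 1.61. These ratios include Rps29, which alone held 1419 of 10878 pooled small-subunit CPM in OHCs and 551.1 of 7528 in cIHCs. The ratios without it were not examined. Within each group the shares of the subunits went together across cells (r = 0.83, rho = 0.83, n = 32 OHCs; r = 0.84, rho = 0.83, n = 67 cIHCs); both shares have the cell's total as denominator.

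The member furthest below OHC levels was Rps29 (chr12:69157722-69159186, minus strand, GRCm38), a zinc-binding protein of the small subunit and the most abundant member per kilobase of transcript in OHCs. Rps29 ran from 666.8 through a median of 1432 to 2139 CPM in OHCs, and from 211.4 through 506.7 to 1250 CPM in cIHCs. The pooled levels were 1419 and 551.1 CPM, a log2 ratio of -1.36 (-1.37 to -1.36). The ranges overlapped only in part: the cIHC was higher in 1.45% of pairs. Rps29 also varied least between OHCs of all members at 50 CPM, with a coefficient of variation of 25.0%.

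The next lowest ratios at 50 CPM or more belonged to small-subunit proteins too. Rps18, of the head of the subunit, had 32.5, 413.6 and 907.7 CPM (lowest, median, highest) in OHCs and 30.3, 199.2 and 533.4 CPM in cIHCs, a pooled log2 ratio of -1.08. Rps23, which lies at the decoding centre, had 94.1, 337.4 and 851.8 CPM in OHCs and 29.3, 172.2 and 552.9 CPM in cIHCs, a ratio of -1.03. Both genes spanned a wide, shared range, and the cIHC was higher in 17.6% and 14.5% of pairs. Rps28 stood at -0.94 (pooled 221.0 and 115.5 CPM) and Rps15, whose tail reaches the decoding centre, at -0.91 (379.3 and 201.9 CPM). Rps19, the gene most often mutated in Diamond-Blackfan anaemia, stood at -0.86 (369.6 and 203.4 CPM).

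Only 11 of the 75 core members at 10 CPM were higher in cIHCs, and none of them by 2-fold; 64 were lower, with a median log2 ratio of -0.42. Rpl18, of the large subunit, was the highest of them, with 0, 181.1 and 549.1 CPM in OHCs and 120.2, 299.7 and 559.2 CPM in cIHCs, a pooled log2 ratio of 0.71 (0.70 to 0.73). Its maxima were alike, while 1 OHC had no Rpl18 read and no cIHC was under 120.2 CPM. Rps13 had 0, 90.9 and 425.1 CPM in OHCs and 45.3, 192.8 and 518.0 CPM in cIHCs, a ratio of 0.66. Rpl35a had 0.667, 189.0 and 508.4 CPM in OHCs and 105.4, 346.8 and 687.8 CPM in cIHCs, a ratio of 0.64. For these 3 genes the cIHC was higher in 73.0% to 79.5% of pairs. In cells with Xist reads their ratios were smaller, at 0.18 for Rpl18, 0.29 for Rps13 and 0.40 for Rpl35a, and in cells with Y-linked reads they were 0.57, 0.93 and 0.80. Rpl5 (0.39) and Rpl3, a protein of the peptidyl transferase centre (0.37), were higher by less.

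Members with a textbook role beyond a structural one were not at 1 end of the order. The stalk proteins, which recruit translation factors to the large subunit, differed among themselves: Rplp0 at 0.03 (pooled 257.9 and 264.1 CPM), Rplp1 at -0.35 (medians of 450.3 and 333.7 CPM) and Rplp2 at -0.59 (343.7 and 227.8 CPM). The 0.03 of Rplp0 changed sign under 5 of 11 alternatives. Rpl5 and Rpl11, which bind the small ribosomal RNA of the large subunit and the ubiquitin ligase Mdm2, stood at 0.39 and -0.04. Rpsa, also known as a laminin receptor, was at -0.05, Rps6, the substrate of the S6 kinases, at -0.11, and Rps27a, which is made as a fusion with ubiquitin, at -0.04. Fau and Rack1, subunit genes that the symbol rule leaves out, were at -0.13 and -0.12.

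Of the 7 paralog rows at 10 CPM, 5 were higher in cIHCs, where 59% of all genes were, and their median log2 ratio of 0.28 was near the 0.25 of all genes. Rps4l (chr6:148354656-148355598, plus strand, GRCm38; annotated as a pseudogene in GENCODE M21) matched the transcript of its partner Rps4x at 80.1% of aligned bases. Reads of Rps4l were in 8 of 32 OHCs (25.0%, exact Clopper-Pearson 95% interval 11.5% to 43.4%) and in 57 of 67 cIHCs (85.1%, 74.3% to 92.6%); with each cell thinned to 5880000 reads, which left 29 OHCs and 65 cIHCs, the shares were 20.7% and 81.5%. Its median was 0 CPM in OHCs (highest 537.4) and 67.8 CPM in cIHCs (highest 512.6), and the pooled levels of 40.9 and 120.7 CPM gave a log2 ratio of 1.56 (1.53 to 1.59). This value depended on the cells used: it was 0.27 with only the cells that had Y-linked reads, and 3.72 with only those that had Xist reads, of which 4 were OHCs. Of all Rps4l counts in OHCs, 45.8% came from 1 cell. Rps4x itself had 3.33, 334.7 and 762.5 CPM in OHCs and 34.96, 226.0 and 969.1 CPM in cIHCs, a ratio of -0.55. The row and its partner thus lay on opposite sides of 0.

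Rpl7l1, a relative of Rpl7 known from ribosome assembly, had reads in 14 of 32 OHCs (43.8%, 26.4% to 62.3%) and 61 of 67 cIHCs (91.0%, 81.5% to 96.6%), and 44.8% and 90.8% after thinning. Its median was 0 CPM in OHCs (highest 309.2) and 69.3 CPM in cIHCs (highest 257.2), with a pooled ratio of 0.71, while Rpl7 stood at -0.60 (632.9 and 417.0 CPM). The ratio of Rpl7l1 was 0.0066 in cells with Y-linked reads and 3.32 in cells with Xist reads. Rpl22l1 (0.28; 60.6 and 73.7 CPM) and Rps27l (0.12; 144.3 and 157.2 CPM) were slightly higher beside lower partners, Rpl22 (-0.47) and Rps27 (-0.61). In cells with Y-linked reads Rpl22l1 turned to -0.85. Transcripts of Rpl7l1, Rpl22l1 and Rps27l gave no alignment to their partners in a search set for highly similar sequences. That search can miss more distant matches, so it does not show the sequences to be unlike.

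**Figure D3:**
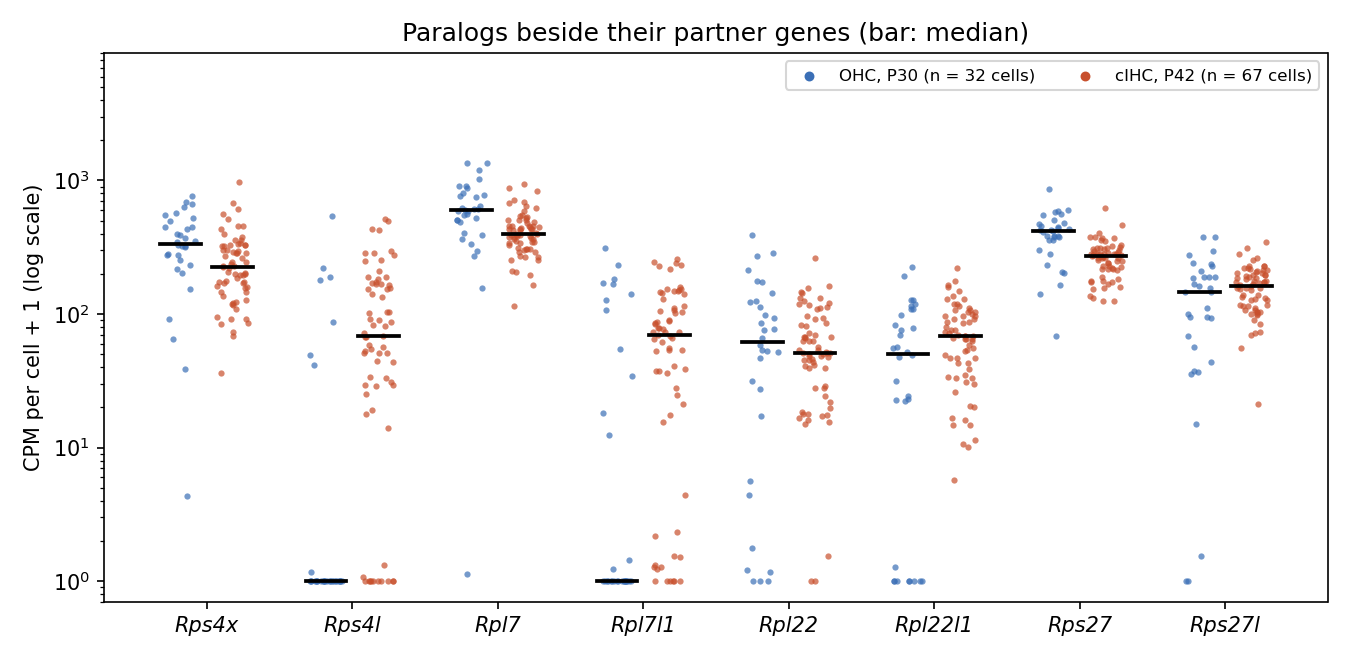
CPM per cell plus 1, on a log scale, of 4 paralogs beside their partner genes in 32 OHCs and 67 cIHCs; bars are medians, and points at 1 have no read. Medians of Rps4l and Rpl7l1 are 0 CPM in OHCs and 67.8 and 69.3 CPM in cIHCs, while medians of the partners Rps4x and Rpl7 are lower in cIHCs.

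Other paralog rows are near-identical to an expressed partner, so reads could be split between them in a way the sources used here do not state. Rps27rt matched Rps27 at 100% of aligned bases and was at -0.75, beside -0.61 for Rps27; Rpl37rt matched Rpl37 at 99.7% and was at -0.99, beside -0.71. Rps3a3, a 98.9% match of Rps3a1, had a pooled ratio of 2.09, but its medians were 3.15 and 3.73 CPM, with a highest cell of 9.81 CPM among OHCs and 130.7 CPM among cIHCs. Its ratio therefore rests on a minority of cIHCs, and ranged from 0.24 to 4.64 over the 11 alternatives. Rpl32l (0.182 and 0.827 CPM) had 67.3% of its cIHC counts in 1 cell, and Rpl6l was at 0.335 and 0.312 CPM. Rpl10l and Rpl39l, known from testis, and Rps12l1 had no read in any cell, and Rps23rg1 had 2 counts in OHCs and 0 in cIHCs. Rpl3l, a muscle form, had 0 counts in OHCs and 101 counts in 1 cIHC.

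Of the 11 rows under 10 CPM, 4 were core members: Rps23rg1, named above, Rps10 (0.273 and 1.31 CPM), Rpl24 (2.43 and 3.23 CPM) and Rpl13a (4.79 and 5.16 CPM). Rps10, Rpl24, Rpl13a and Rpl36al (2.81 and 1.45 CPM) were the only 4 members with at least 50% of their transcript under another gene of the same strand in GENCODE M21: RPS10-NUDT3 covers 91.6% of Rps10, Gm28037 71.5% of Rpl24, Gm45713 59.3% of Rpl13a and Gm49383 63.1% of Rpl36al. Reads that fall on more than 1 gene are commonly dropped in counting; whether they were here was not tested, and the levels of these 4 rows are uncertain. In all, 35 members have a near-identical copy elsewhere in the annotation (at least 95% identity over at least 80% of the transcript), up to 32 for Rpl7a. The 196 rows of such copies outside the members had counts equal to 2.04% of the members' own in OHCs and 4.54% in cIHCs. Of these counts 56.02% lay on Ciapin1, another protein-coding gene that holds a match to Rpl7a; without it the values were 1.60% and 1.59%. Members without such a copy had a median log2 ratio of -0.40 (52 rows) and those with a copy -0.39 (31 rows).

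Per kilobase of transcript, the order of the core members was much the same in both groups, with a Spearman rho of 0.91 across 75 members, which share libraries and lengths. The median level was 355.7 CPM per kb in OHCs and 317.5 in cIHCs. Rps29 was highest in OHCs with 3638 CPM per kb (1413 in cIHCs), followed by Rpl41, the shortest protein of the ribosome, with 2971 (2590 in cIHCs), Rpl37a with 1410 (821.2), Rpl36 with 1409 (848.3) and Rps27 with 1154 (753.5). In cIHCs Rpl41 therefore stood above Rps29. At the low end of the core members at 10 CPM were Rps20 with 55.3 (40.9 in cIHCs), whose principal transcript of 3706 bases in GENCODE M21 is long for its coding length of 357 bases, and Rpl23a with 65.01 (35.7), 55.4% of whose transcript lies under Tlcd1 on the other strand.

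Shorter members were lower in cIHCs than longer ones. Across the 74 core members at 10 CPM with a coding length, the log2 ratio went with coding length at a Spearman rho of 0.35 (Pearson r = 0.32), and with transcript length at 0.32 (r = 0.30, 75 members). Members are not independent, since they share libraries and a common scale. For coding length the small-subunit members had rho = 0.55 (30 genes) and the large-subunit members 0.27 (44 genes). Under 300 coding bases all 9 members were lower, with a median of -0.61; from 600 to 900 bases 15 of 18 were lower, with a median of -0.25; none of the 3 at 900 bases or more (Rpl3, Rpl4 and Rplp0) was. All 9294 protein-coding genes at 10 CPM had a rho of -0.05 with coding length and -0.08 with transcript length. Other genes with under 300 coding bases (202 genes) had a median of 0.14, with 42.6% lower. By transcript length under 500 bases, however, 67.7% of 65 other genes were lower, with a median of -0.31, beside 15 of 16 members with a median of -0.56. The part of transcript length in the members' ratios was not tested further.

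**Figure D4:**
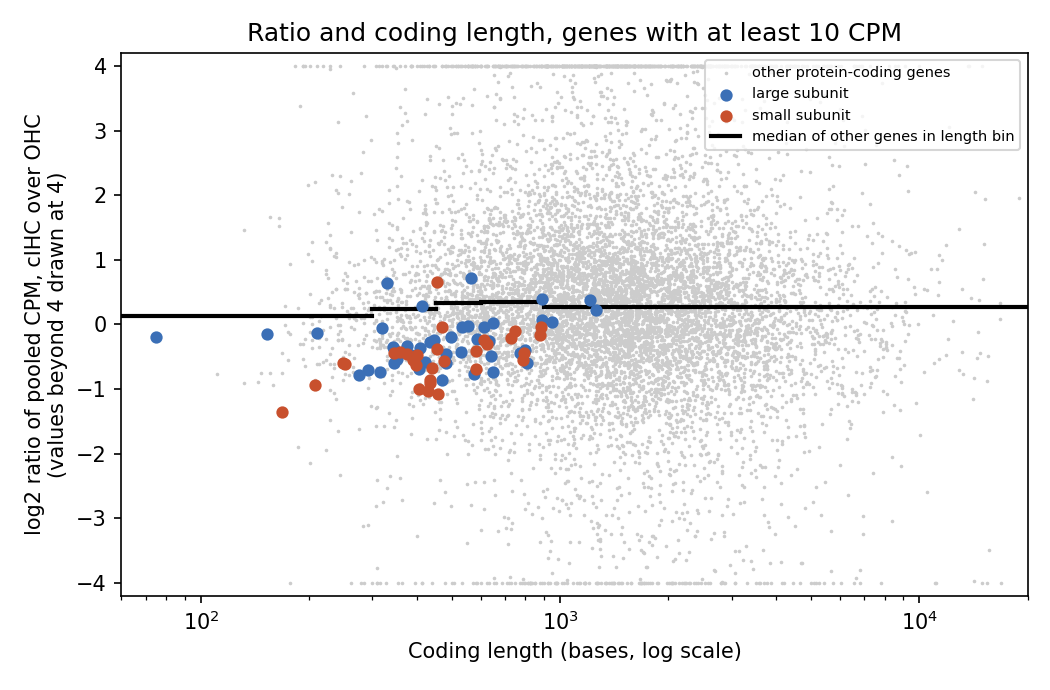
The log2 ratio of pooled CPM, cIHC over OHC, against coding length in bases on a log axis, for core members (blue, large subunit; red, small subunit) and other protein-coding genes at 10 CPM (grey). Black bars are medians of the other genes in each length range; members under 300 bases have a median of -0.61, beside 0.14 for other genes of that length.

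The start of the gene was examined because ribosomal protein mRNAs typically start with a TOP element. RefSeq windows (GRCm38.p6) of 250 bases before to 50 bases after the start were at hand for 54 of the 75 core members at 10 CPM. A run of 8 or more C or T on the gene's strand, beginning within 40 bases of the annotated start, was sought. It was present in 44 of the 54 members (81.5%), against 34.4% of 26956 other genes. Unlike the members, these other genes were not limited to those at 10 CPM. The part of expression level in this contrast was not tested. The 5 lowest and the 5 highest log2 ratios among the core members at 50 CPM with such a run are shown. Each is given as 30 bases around the run, 5′ to 3′, from the window with the longest run, which is in capitals. That window need not be at the first start of the gene. The first 5 were lower in cIHCs and the last 5 higher.

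Rps18, chr17:33955644-33955673, minus strand: cttccgCTCTCTCTTCCacaggaggcctac

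Rps23, chr13:90923142-90923171, plus strand: tgggtccttcctgcaCCTCCTCTCTCTTTC

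Rps15, chr10:80292450-80292479, plus strand: cccgtaCTTCCTTTTCCgagtaaccgccaa

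Rps19, chr7:24884612-24884641, plus strand: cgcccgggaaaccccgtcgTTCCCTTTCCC

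Rpl37a, chr1:72711277-72711306, plus strand: attgcgTCCCTTCCTCTTCggacttgggct

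Rpl4, chr9:64173407-64173436, plus strand: gcgtggCCTTCTCCTCTCCCCgtcatggtg

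Rpl28, chr7:4792956-4792985, plus strand: ctcgtgTCTCTCTTTCCgtctccggccgcc

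Rpl5, chr5:107900502-107900531, plus strand: cagccaCTCTTTCTCacgtcgcttgcgtgc

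Rpl35a, chr16:33056471-33056500, plus strand: ggcttgCCTTCCTCTTTCCgccatcttggc

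Rpl18, chr7:45718066-45718095, plus strand: aggccgCTCTTTCCCCgcccactccggcgc

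The runs shown had from 11 to 15 bases in the lower set and from 9 to 15 bases in the higher set. Those of Rps23 and Rps19 end at the edge of the window, so their lengths are minimums. Relative to the annotated start of the window used, the runs shown began from base -20 (Rpl5) to base 40 (Rps19). A run was not required to lie at the first base of the mRNA, so it need not be a TOP element. The 44 members with a run had a median log2 ratio of -0.40 and the 10 without -0.41. Whole windows were also searched for 5 motifs, which can overlap the run: CTTTCC on the gene's strand was in 38.9% of members and 15.96% of other genes, CTCTTT on the gene's strand in 42.6% and 13.7%, CCGGAAGT on either strand in 20.4% and 4.27%, AAGATGGC on either strand in 7.41% and 3.18%, and TATAAA on the gene's strand in 9.26% and 9.77%. Here too a motif in any window of a gene counted. The other genes were again not limited to those at 10 CPM, and the part of expression level was not tested. A match is a description of letters, not a site.

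Levels of the members varied less between cells than those of other genes, and went together weakly. The median coefficient of variation of CPM over the 78 members at 50 CPM was 56.01% in OHCs and 45.1% in cIHCs, against 129% and 84.8% for all genes at that level. Rps4l varied most of the members in both groups (267% and 108%). The members were not matched to other genes by level, and the part of level in their lower variation was not tested. The median Spearman rho over pairs of members was 0.08 in OHCs and 0.12 in cIHCs, against 0.00 over pairs of all genes in either group; all pairs share each cell's total, and values this weak in single cells are given as a description only.

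Among the 67 cIHCs, the summed share was lower in cells with more Tbx2 mRNA (r = -0.45, rho = -0.36, and r = -0.35 without the 2 cells furthest from the median Tbx2 level). Within the 55 cIHCs with Xist reads r was -0.52, and within the 12 with Y-linked reads -0.08, turning to 0.85 without 2 cells, so the relation did not hold in both sets. It is 1 of 38 such correlations computed. The share also went with the number of genes with reads (r = -0.33, rho = -0.35) and with the mitochondrially encoded share (r = 0.35, rho = 0.45) in the 67 cIHCs, and these measures share the cell's total. It was higher in cIHCs with a higher sum of the 10 supporting cell genes (r = 0.41, rho = 0.36, and r = 0.37 without 2 cells), a sum held mostly by S100a1, and with more counts on ribosomal -ps rows (r = 0.49, rho = 0.42). The part of other cells' RNA in the share was not tested.

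Other lists of the translation machinery were taken from general knowledge and are set against the 59% of all genes that were higher in cIHCs. Of 77 mitochondrial ribosomal protein genes at 10 CPM, 61 were higher in cIHCs (median log2 ratio 0.42). Their summed share was higher in the cIHC in 85.6% of pairs (medians of 0.563% and 0.718%). With Xist reads the medians of this share were 0.618% (4 OHCs) and 0.747% (55 cIHCs). With Y-linked reads they were almost equal, at 0.555% (24 OHCs) and 0.567% (12 cIHCs). Mrps6 went from 45.5 to 404.6 CPM (3.15) and Mrpl14 from 211.1 to 116.5 CPM (-0.86). Of 33 initiation factor genes 23 were higher, with a median of 0.28, near the 0.25 of all genes; Eif3f stood at 1.47 and Eif4b at -0.87. Of 14 elongation and ribosome-bound factor genes 8 were higher, with a median of 0.08, which lies under that of all genes. Among them Tpt1, whose mRNA also carries a TOP element, was at -0.37 (1613 and 1249 CPM). The list ran from Eef2k at -0.82 (24.1 and 13.7 CPM) to Hnrnpa1 at 1.42 (77.0 and 206.3 CPM). TOP mRNAs outside the members were not examined as a set, so Tpt1 is a single example. Of 35 ribosome biogenesis genes 22 were higher, with a median of 0.13, also under that of all genes, with Polr1b, of RNA polymerase I, at -1.50 and Polr1a, its largest subunit, going from 0.066 to 20.4 CPM.

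The pathway that acts on TOP mRNAs and on Rps6 was mixed, with 8 of 14 genes at 10 CPM higher (median 0.89). Mtor (0.96) and Larp1 (0.90) were higher, and Rptor, the partner of mTOR in its growth complex, lower (-1.79; 60.5 and 17.5 CPM), as were its inhibitors Tsc1 (-0.96) and Tsc2 (-0.64). Rps6kb1, the main S6 kinase gene, stood at -0.37 and Rps6kb2 at 0.89. Of the 8 Rps6k kinase genes at 10 CPM, which hold these 2, 5 were higher (median 0.59), from Rps6ka5 at -2.13 (31.1 and 7.14 CPM) to Rps6ka2, with 2 counts in OHCs and 13269 in cIHCs, at 11.53 (interval 9.67 to 14.57). Myc, a transcription factor that drives ribosome synthesis, had 1 count in OHCs and 11808 in cIHCs (21.7 CPM), a log2 ratio of 12.36 with an interval of 9.88 to 17.66. Of 13 ribosomal pseudogene rows (-ps) at 10 CPM, 8 were lower, and they spread from -3.22 (Rpl31-ps6) to 5.18 (Rpsa-ps10), far wider than the members.

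**Figure D5:**
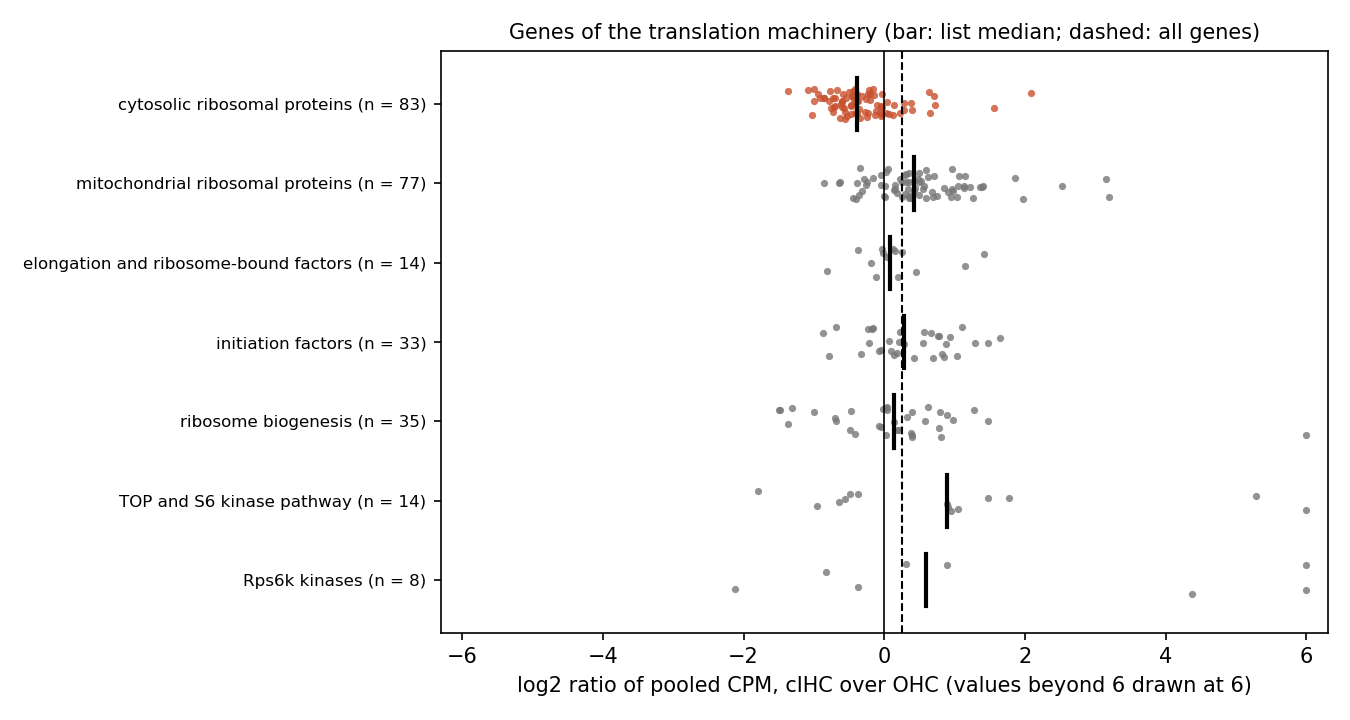
The log2 ratio of pooled CPM, cIHC over OHC, of single genes at 10 CPM in the cytosolic ribosomal protein rows (red) and in 6 lists of the translation machinery (grey), with the list median as a black bar and the median of all genes (0.25) dashed. The cytosolic rows have a median of -0.39 and the mitochondrial ribosomal protein genes 0.42.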

How the data were processed

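The data were read counts per gene from 99 single cells. The authors deposited these counts in 1 table; that they are not normalised was judged from the values, whole numbers with a different total in each cell. HISAT2 2.2.1, StringTie 2.2.1, featureCounts 2.0.1 and the build mm10 are named in the submitters' processing notes; their settings, the annotation, strand use and the treatment of reads with several matches are not given in the sources used here. All columns belong to a cell by title, 0 rows lack a gene name, 0 pairs of cells were identical, and no cell was left out.

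The members and lists were chosen with earlier results of these data known. Counts were summed over each group and divided by its total (pooled CPM); ratios are cIHC over OHC. Sums of 0 were set to 3 counts over the group, and no ratio was given where both sums were at or under 3, as for 4 members. The main level filter was 10 CPM in 1 or both groups. Intervals are exact (95%): conditional binomial for ratios and Clopper-Pearson for shares of cells. Genes named are the 6 lowest and 6 highest ratios at 50 CPM, paralogs with their partners, members of textbook function, the 5 highest and 5 lowest per kb and the 2 extremes of each list; Rpl4 and Rpl28 are named for their start sequences, and Rps3a2, Rps23rg1 and Rpl7a were singled out after their values were seen. Values of 2 genes that these rules name are not reported here.

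Lengths and overlaps come from GENCODE M21, which holds 93 of the 94 members and need not be the authors' annotation; the shortest principal transcript was used, in place of the longest tried first. Copies and paralog matches were sought with blastn 2.17.0 in its megablast mode, which is set for highly similar sequences. Several steps were chosen after values or sequences had been seen: both length measures, the length ranges, the overlap and copy limits, and the run of C or T and the 5 motifs, 6 start-site patterns in all. Correlations of the summed share took 8 measures in 5 sets of cells, 38 in all. The ratio step was tested on simulated data. Alternatives were means or medians per cell, leaving out the highest cell, TMM (edgeR 4.0.16, R 4.3.3) or median-of-ratios scaling, totals without mitochondrially encoded or the 10 most abundant genes, cells with Xist or Y-linked reads only, thinned cells, leaving out the 25% of cells with the fewest genes, other filters and folds, and, added after seeing the data, only members without a copy. The remaining steps ran in Python 3.11.15 (scipy 1.17.1, numpy 2.4.6, matplotlib 3.10.9, pandas 2.3.3).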

Additional observations from a re-analysis of the deposited data

How the results depend on the processing

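No paired analysis was possible because title numbers give no link between the groups, and no result here rests on a test. The 12 cIHCs with Y-linked reads were those numbered 1 to 12, and the 55 with Xist reads those numbered 13 to 67. Each of these cIHC sets is thus an unbroken block of titles. Whether a block is a single animal or preparation is not stated, so the sets may differ in more than sex. The summed level stayed lower in cIHCs under the 11 alternatives run, and so did the median member ratio under its 15. The log2 ratio of the summed level, -0.38, was -0.34 with medians per cell, -0.37 without the cell with the highest share in each group, -0.57 with TMM, -0.58 with median-of-ratios scaling, -0.42 without mitochondrially encoded genes in the totals, -0.46 without the 10 most abundant genes, -0.45 with only cells with Xist reads, -0.47 with only cells with Y-linked reads, -0.375 with thinned cells and -0.42 without the cells with the fewest genes. The median member ratio, -0.39, was in the same order -0.35, -0.36 (without the highest cell of each gene), -0.59, -0.60, -0.44, -0.47, unmoved with Xist reads, -0.50, unmoved with thinned cells and -0.41; it was -0.38 with no filter and -0.42 without paralogs and non-subunit rows. The median of all genes shifted by -0.19 with TMM and -0.20 with median-of-ratios; each is a single factor per group, so the members' distance of -0.64 from it cannot change. That distance was -1.12 with medians per cell and -1.02 with Xist reads. Members lower in cIHCs, 67 in the main result (80.7%), ran from 58 (69.9%) with Xist reads, 62 (76.5%) with medians per cell and 63 (75.9%) without the highest cell to 72 (86.7%) with TMM and with median-of-ratios scaling, beside 37.2%, 28.7%, 33.8%, 47.9% and 48.3% of all genes.

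The counts past 2-fold depend most on these choices. Members at least 2-fold lower numbered 3, and 9 with TMM, 9 with median-of-ratios scaling and 5 without mitochondrially encoded genes. They numbered 6 without the 10 most abundant genes, 10 with Xist reads, 13 with Y-linked reads and 5 with thinned cells. In the main result 24 of 83 were at least 1.5-fold lower, where 22.2% of all genes were. Members at least 2-fold higher numbered 2, and 1 with Y-linked reads, 5 with no filter and 1 at 50 CPM. They numbered 0 without paralogs and 1 without members that have a copy. In the main result 6 of 83 were at least 1.5-fold higher, where 37.7% of all genes were. The shares of all genes past 2-fold were not computed under the alternatives. Only 4 OHCs had Xist reads, so that set is thin, and the cause of the shifts was not tested.

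Of 51 named members, 16 changed sign under 1 or more alternatives, 9 of them with a main ratio under 0.15 in size. With TMM and median-of-ratios scaling in turn, Rps27l was -0.0689 and -0.0786, Rpl6 -0.12 and -0.13, Rplp0 -0.16 and -0.17, and Rpl13a -0.0834 and -0.0930. Without mitochondrially encoded genes Rplp0 was -0.0106, and without the 10 most abundant genes Rplp0 was -0.0446 and Rpl6 -0.0053. With medians per cell Rpl32l was -0.95, Rps27a 0.0098, Rpl11 0.0632 and Rps19bp1 5.10; without the highest cell Rps27a was 0.0220 and Rpl11 0.0071. With Xist reads Rps3a1 was 0.33, Rpsa 0.20, Rps19bp1 4.00, Rpl24 -0.42, Rps20 0.0191, Rpl23a 0.35 and Rpl41 0.0618. With Y-linked reads Rpl22l1 was -0.85, Rpl32l -0.67, Rpl6 -0.24, Rplp0 -0.60, Rps6 0.27, Rps27a 0.15 and Rpl24 -0.57. With thinned cells Rps19bp1 was 0.14, and without the cells with the fewest genes Rpl24 was -0.11.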
